A study of Mus musculus with 82 samples.

Results

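Small nucleolar RNAs (snoRNAs) of sorted naive CD4 T cells were compared between inbred strains of mice on Affymetrix ST1.0 arrays. A gene was a member where a probe set carried 1 annotated symbol beginning with Snord or Snora, and each gene was read from its brightest probe set. This gave 50 members of 19752 genes with 1 symbol, read from 53 probe sets, of which 30 were Snord (box C/D) and 20 were Snora (box H/ACA) genes. Each value is an intensity, the summed brightness of the probes of 1 probe set, and log2 intensities were used for every difference. Intensities of different probe sets depend on their probes, so levels were compared between arrays and never between members.

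snoRNAs are short RNAs of the nucleolus that pair with ribosomal RNA and direct its chemical modification. Box C/D snoRNAs guide 2′-O-methylation by fibrillarin, and box H/ACA snoRNAs guide pseudouridylation by dyskerin. In mammals most of them are cut out of introns of host genes, many of which encode ribosomal proteins or are non-coding genes with short-lived spliced transcripts. A few, such as Snord118 (U8) and Snora73 (U17), serve in the cleavage of precursor ribosomal RNA and not as guides.

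The cells were sorted from spleen as CD3+, CD4+ and CD62L+, and as negative for a set of exclusion markers that included CD8, CD11c, CD25, CD49b, Gr1 and Ter119. Each array held total RNA of a small pool of male mice, aged 6 weeks per the labels and 5 weeks per the series text. The 82 arrays formed 40 strain groups, with 5 arrays for C57BL/6J, 1 for SWR/J and 2 for each of the other 38. The other groups were 129S1/SvImJ, A/J, AKR/J, BALB/cByJ, BPL/1J, BTBR T+ tf/J, C3H/HeJ, C57BL/10J, C57BLKS/J, C57L/J, CAST/EiJ, CBA/CaJ, CBA/J, CE/J, DDY/JclSidSeyFrkJ, FVB/NJ, JF1/Ms, KK.Cg-Ay/J, LGJ, LP/J, MA/MyJ, MRL/MpJ, MSM/Ms, NOD/ShiLtJ, NON/ShiLtJ, NOR/LtJ, NZB/BINJ, NZW/LacJ, P/J, PL/J, PWD/PHJ, RIIIS/J, SEA/GnJ, SJL/J, SM/J and WSB/EiJ. Arrays titled C57BR but labelled CBA/CaJ, and arrays titled DBA2 but labelled DBA/1LacJ, were kept as groups of their own and are called C57BR-titled and DBA2-titled.

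Of the 50 members, 49 lay inside another gene in the mouse annotation, 36 in a protein-coding gene and 13 in a long non-coding gene. Snord118 lay in none. Genes for ribosomal proteins and other parts of the translation machinery often begin with a run of pyrimidines, the 5′ terminal oligopyrimidine tract. The following windows, 25 bases before and 25 from the annotated start of a host gene on the gene's strand, are from RefSeq (GRCm38.p6). They are shown for each host with an entry of Snord53 and of the members described below as differing in 1 strain or between subspecies, with CTTTT or CTTTC in capitals.

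Rpl13a (hosts Snord33 and Snord35a), chr7:45128721-45128770, minus strand: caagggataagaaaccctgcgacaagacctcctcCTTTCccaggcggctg
Rpl27a (hosts Snora3), chr7:109519170-109519219, plus strand: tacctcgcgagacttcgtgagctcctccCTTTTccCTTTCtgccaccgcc
Rack1 (hosts Snord95 and Snord96a), chr11:48800335-48800384, plus strand: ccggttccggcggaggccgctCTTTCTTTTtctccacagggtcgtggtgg
Snhg12 (hosts Snora16a and Snora44), chr4:132308653-132308702, plus strand: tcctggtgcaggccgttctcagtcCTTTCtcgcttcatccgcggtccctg
Wdr43 (hosts Snord53), chr17:71616190-71616239, plus strand: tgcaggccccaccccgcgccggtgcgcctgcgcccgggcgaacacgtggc
Ncl (hosts Snord82 and Snora75), chr1:86359431-86359480, minus strand: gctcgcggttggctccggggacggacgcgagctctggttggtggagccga
Rps3a1 (hosts Snord73a and Snord73b), chr3:86142644-86142693, minus strand: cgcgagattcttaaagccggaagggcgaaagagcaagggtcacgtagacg
Rps3 (hosts Snord15a and Snord15b), chr7:99483685-99483734, minus strand: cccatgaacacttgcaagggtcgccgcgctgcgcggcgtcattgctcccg
Rbmx (hosts Snord61), chrX:57393012-57393061, minus strand: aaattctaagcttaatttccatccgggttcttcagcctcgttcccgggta
Kansl2 (hosts Snora2b), chr15:98534245-98534294, minus strand: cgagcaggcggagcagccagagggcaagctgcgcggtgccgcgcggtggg
Srcap (hosts Snora30), chr7:127511958-127512007, plus strand: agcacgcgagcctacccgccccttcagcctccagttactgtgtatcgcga

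The windows of Rpl13a, Rpl27a, Rack1 and Snhg12 held CTTTT or CTTTC on the gene's strand, and those of Wdr43, Ncl, Rps3a1, Rps3, Rbmx, Kansl2 and Srcap held neither. On the gene's strand, 10 of 33 windows of host genes (30.3%) held 1 of these motifs, against 11.5% of all 32851 windows of the same length. On either strand the shares were 36.4% of host windows and 21.1% of all windows. An entry was given for 31 of 43 host genes, some with more than 1 start, and the 2 motifs can overlap at 1 base.

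Of 9 naive CD4 T cell markers 7 were measured, with mean intensities of 1072 (Cd3d) to 6717 (Cd3e), Cd4 at 5029 and Ccr7 at 6664. The 7 measured B cell markers averaged 25.3 (Ms4a1) to 133 (Cd79b). Of the CD8 T cell markers Cd8b1 averaged 579 and Cd8a 82.6. Of the natural killer cell markers Prf1 averaged 355, and Klrb1c, Ncr1, Gzma and Eomes 15.0 to 85.9. Array medians ran between 102 and 142, with C57BL/6J replicate 5 highest and CAST/EiJ replicate 2 next at 123. One library stood apart in its markers: PL/J replicate 2 had a mean log2 level of 8.71 over 7 B cell markers, against 5.87 on PL/J replicate 1, and was also high in erythroid (7.93 against 6.25) and neutrophil (7.75 against 5.74) markers. A/J replicate 2 was high in B cell (7.36) and erythroid (7.75) markers. Results that rest on these arrays are given with and without them.

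Most members moved up and down together from array to array. The mean log2 level of the 50 members on an array, called the shared level here, averaged 9.42 and ran between 8.74 on RIIIS/J replicate 2 and 10.28 on MRL/MpJ replicate 2, a 2.89-fold span. The first principal component of the members held 46.8% of their variance over the 82 arrays. In 36 members the correlation with the mean of the other 49 was over 0.5, with a median of 0.73 over all 50. These correlations are descriptions, since all members were read from the same arrays.

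The shared level differed about as much between arrays of 1 strain as between strains. Its SD was 0.24 between strain means and 0.25 between arrays of a strain, an intraclass correlation (the share of variance between strains) of 0.304. Within 7 strains the 2 arrays were more than 0.5 apart, and the median gap was 0.28. On C57BL/10J replicate 3 the shared level was 10.20, against 9.40 on replicate 1, and 46 of 50 members were higher there. All 50 members lay on 1 side in KK.Cg-Ay/J (9.57 against 8.97) and in the DBA2-titled group (9.81 against 9.36). Between the same arrays, the median difference of all probe sets was -0.0103 in C57BL/10J, -0.0045 in KK.Cg-Ay/J and -0.0141 in the DBA2-titled group. The share of all probe sets on each side was not counted. The array medians did not move with the shared level (r = -0.0939 over 82 arrays). In these bulk samples, fewer cells that hold these RNAs and less of them per cell cannot be told apart. What moved the shared level between arrays of 1 strain was not tested.

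**Figure D1:**
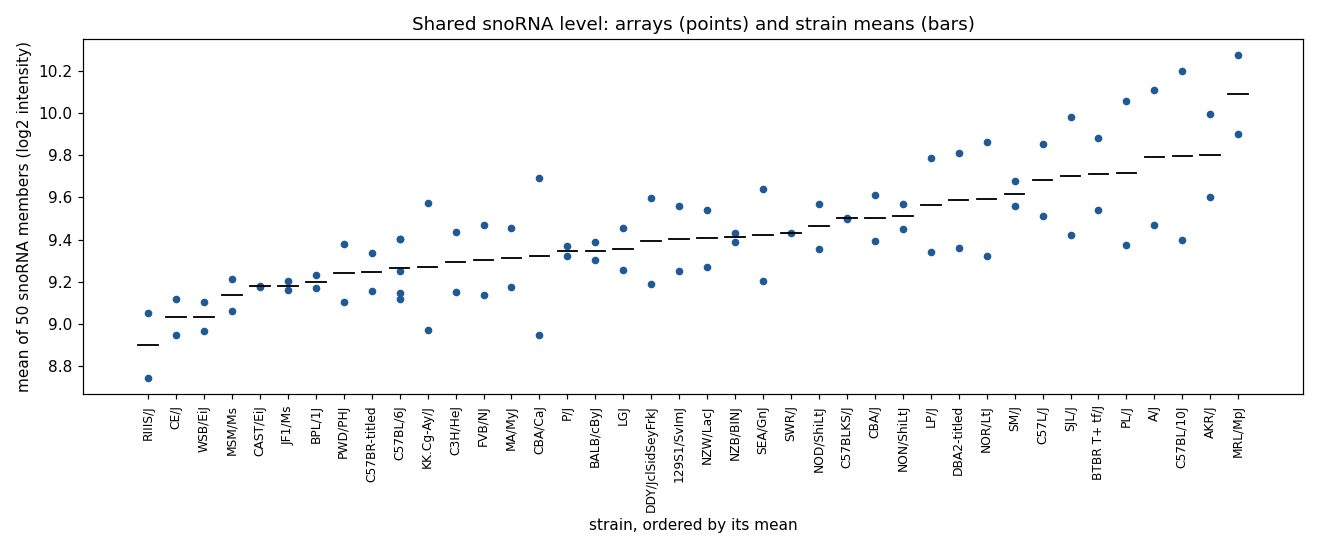
Shared snoRNA level, the mean log2 intensity of 50 members, on the vertical axis for each array (points) and strain mean (bars), with the 40 strain groups ordered by their mean on the horizontal axis. RIIIS/J lies lowest and MRL/MpJ highest, and the 2 arrays of several strains, such as C57BL/10J at 10.20 and 9.40, lie far apart.

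The 2 classes moved together. The array levels of box C/D and box H/ACA members correlated with r = 0.74 (rho = 0.769, 82 arrays that both share). The intraclass correlation was 0.446 for the box C/D level and 0.0719 for the box H/ACA level. Single box C/D members had a median intraclass correlation of 0.453, single box H/ACA members one of 0.264. The difference between the classes was not tested.

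A group of 8 members followed the rest weakly, with r below 0.3 against the mean of the others. Snord53 was lowest at 0.0105, followed by Snord14e (0.0629), Snord96a (0.0639), Snord37 (0.0785), Snord42b (0.0785), Snord95 (0.159), Snord58b (0.239) and Snora75 (0.276). Of these, 7 are box C/D snoRNAs, and Snord95 and Snord96a lie in the same host, Rack1, which encodes a scaffold protein of the small ribosomal subunit.

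Between strains, 36 of 50 members differed by limma's moderated F-test with Benjamini-Hochberg adjustment over 24922 probe sets, against 47.6% of all probe sets. Most members are bright. Among probe sets with a mean over all arrays above the median of all values the share was 77.1%, and 32 of the 45 members above that median passed. By class, 25 of 30 box C/D members and 11 of 20 box H/ACA members passed. The highest strain mean of a member was 1.45-fold (Snord57) to 11.96-fold (Snord118) above its lowest, with a median of 3.33-fold. Without PL/J replicate 2 and A/J replicate 2 the range of Snord118 was 15.2-fold, with A/J in place of PL/J as its highest strain. The range with all arrays reached 2-fold in 44 members, against 18.6% of all probe sets. Scatter between arrays of a strain also widens such a range. The median SD of that scatter was 0.33 in members and 0.16 in all probe sets. Snora31, for example, ranged 3.02-fold and did not pass the F-test (adjusted p = 0.515, limma).

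To set strain differences of single members against the shared level, the fit was repeated with the shared level of each array as a covariate. That covariate is the mean of all members, the tested member included. A difference beyond it is thus relative to the members as a set. Such a difference cannot tell a move of the tested member from a move of the other members. Beyond the shared level, 36 members again passed the F-test, against 45.9% of all probe sets, and 32 passed in both fits. Of the 45 members with a mean above the median of all values, 32 passed beyond the shared level. The share of all probe sets above that median was not counted for this fit, nor was the share that passed both fits. The 4 that passed without the covariate alone were Snora20, Snora33, Snord16a and Snord8. Snord16a, from an intron of Rpl4, had an adjusted p of 2.06e-05 without and 0.0625 with it (limma). The 4 that passed with it alone were Snora23, Snora44, Snora73a and Snora73b. Snora73a had an adjusted p of 0.134 without and 5.29e-07 with the covariate (limma). The other 10 members (Snora31, Snora70, Snora74a, Snora75, Snora7a, Snord14e, Snord37, Snord57, Snord73a and Snord85) passed in neither.

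**Figure D2:**
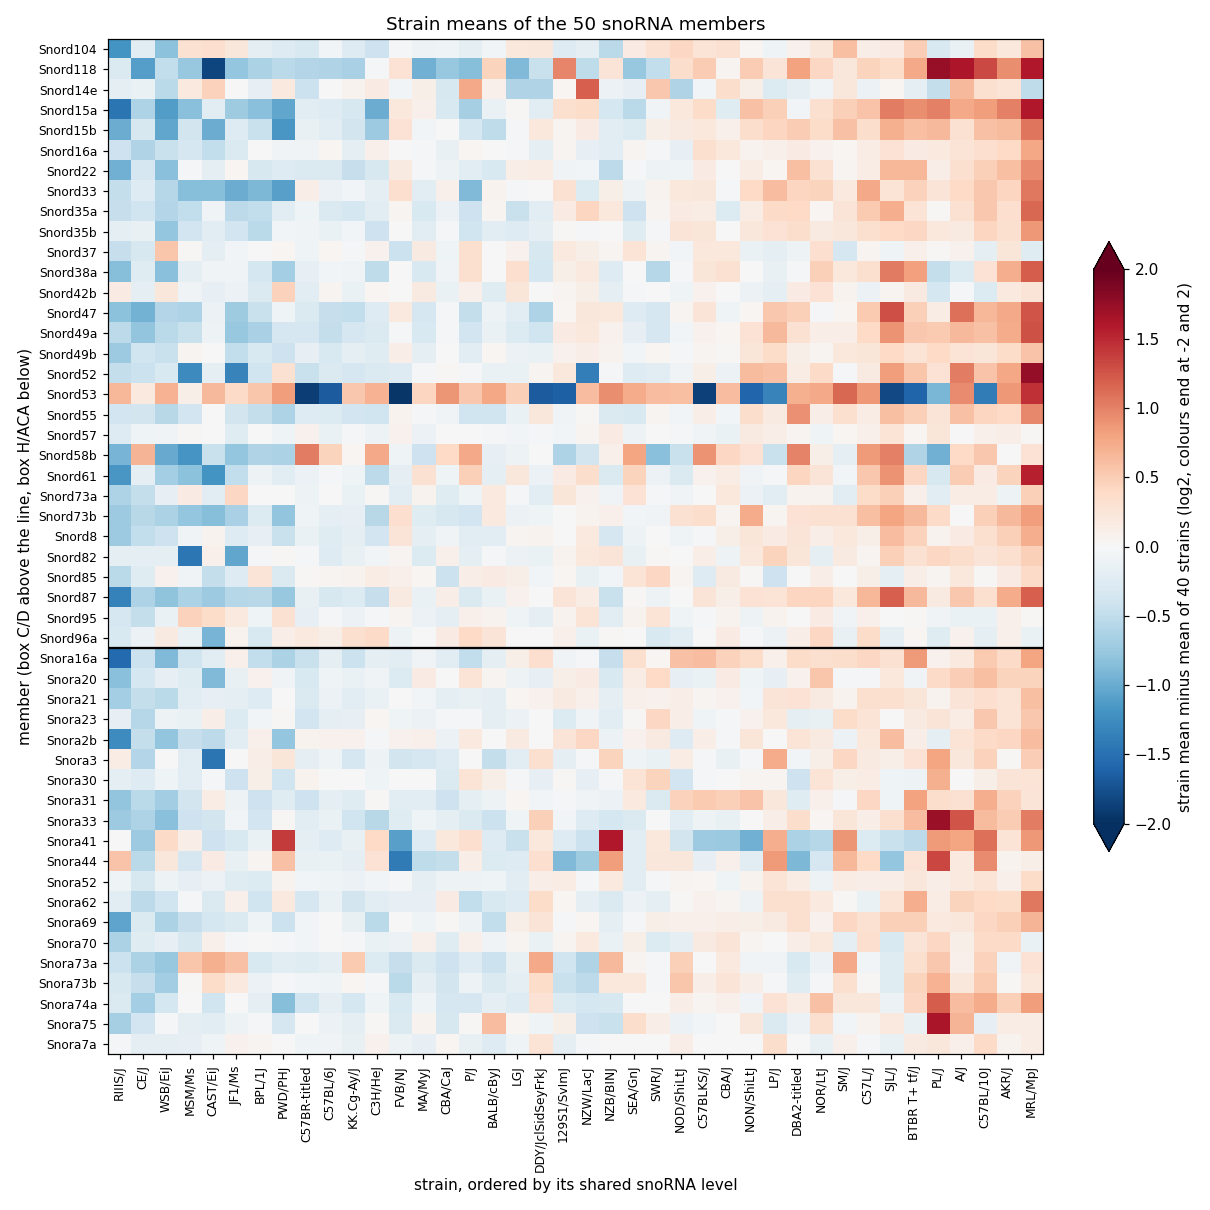
Strain means of the 50 members as log2 differences from the mean of the 40 strains (colour, ending at -2 and 2), box C/D members above the line and box H/ACA members below it, strains ordered by shared level. Columns at the left are mostly blue and those at the right mostly red, and the row of Snord53 does not follow that order.

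Snord53 separated the strains more sharply than any other member. It is a box C/D snoRNA in an intron of Wdr43, whose protein takes part in the processing of small-subunit ribosomal RNA. Its strain means had an SD of 1.10, its arrays within a strain an SD of 0.33, and its intraclass correlation was 0.916. The adjusted p of the F-test was 8.75e-21 without and 9.98e-30 with the shared level (limma, BH).

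Snord53 was low in 12 strains, whose means ran between 595 (FVB/NJ) and 1210 (PL/J), and high in 28 strains, whose means ran between 2472 (MSM/Ms) and 6302 (MRL/MpJ). The step between neighbouring strain means was 2.04-fold there. With at least 4 strains on each side, the widest step of another member was 1.27-fold (Snord118), and with no such limit it was 1.92-fold (Snora75, below PL/J alone). The low strains were FVB/NJ, C57BR-titled, C57BLKS/J, SJL/J, DDY/JclSidSeyFrkJ, C57BL/6J, 129S1/SvImJ, BTBR T+ tf/J, NON/ShiLtJ, C57BL/10J, LP/J and PL/J. Their 27 arrays ran between 540 and 1628, and the 55 arrays of the other strains between 2264 and 8179, so the arrays did not overlap. The highest array of the low strains was PL/J replicate 2 at 1628, where PL/J replicate 1 read 899. The grouping was read from these values, so it carries no test of its own.

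The 5 C57BL/6J arrays read 774, 700, 692, 787 and 676 for Snord53, a narrow spread. Against the other 39 strains, C57BL/6J was lower by a log2 difference of -1.70 ± 0.14 (SE, adjusted p = 1.18e-13, limma), a contrast in which 1.95% of all probe sets were lower. Related strains did not all fall on 1 side. C57L/J read 3913 and 4444, in contrast to C57BL/6J, C57BL/10J and C57BLKS/J. NOD/ShiLtJ read 3382 and 3578, and NOR/LtJ 3075 and 4833, where NON/ShiLtJ read 797 and 726.

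All 12 low strains were past the threshold against the other 39 strains, and 15 strains were past it on the high side. With the shared level as covariate these counts were 12 and 26. The host gene did not show the same step: Wdr43 correlated with Snord53 at r = 0.187 over 40 strain means. Whether DNA sequence under the probes of Snord53 differs between the strains was not tested.

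**Figure D3:**
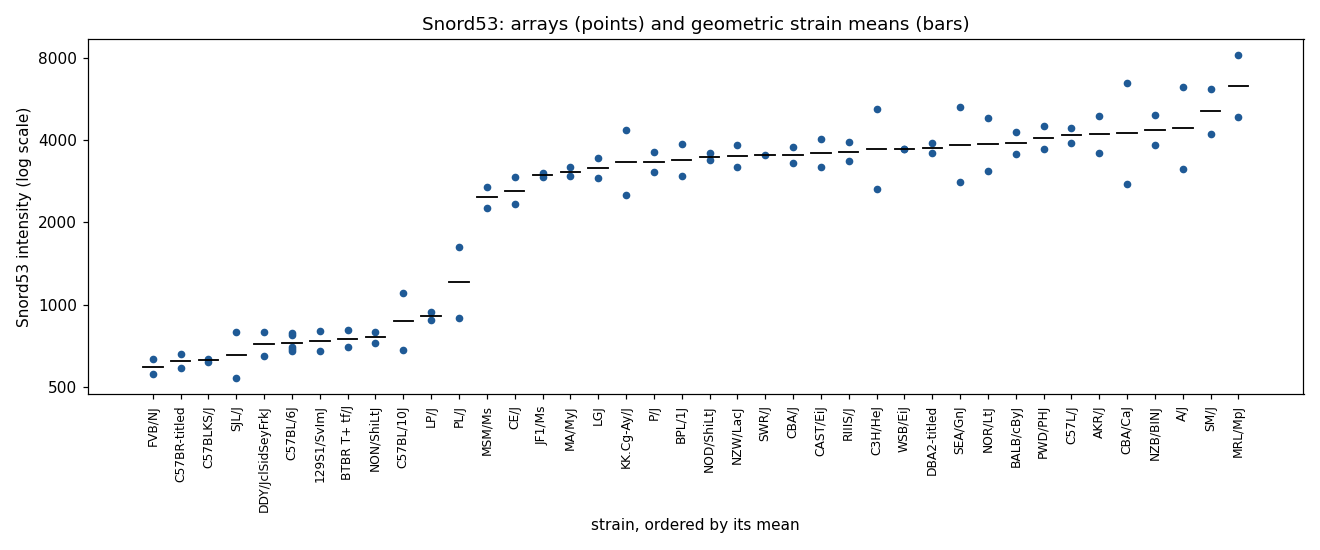
Snord53 intensity (log scale, vertical axis) on each array (points) with geometric strain means (bars), strains ordered by their mean on the horizontal axis. The 12 strains at the left lie between 540 and 1628 and the 28 at the right between 2264 and 8179.

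With Snord53, 7 members had an intraclass correlation of at least 0.6, against 16.8% of all probe sets, and each of them passed the F-test. Snord82, in an intron of the nucleolin gene Ncl, had a value of 0.747 and strain means between 1680 in MSM/Ms and 6391 in SJL/J (F-test adjusted p = 1.05e-09, limma). Snord33, in Rpl13a, had 0.699 and ran between 756 in PWD/PHJ and 3330 in MRL/MpJ (limma adjusted p = 1.12e-08). Snord58b, in Rpl17, had 0.654 but was dim, with strain means between 22.2 in MSM/Ms and 102 in the C57BR-titled group (limma adjusted p = 1.17e-07). All its strain means thus lay below the median of all values, 113.

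Snord73b, in the ribosomal protein gene Rps3a1, had an intraclass correlation of 0.648 and ran between 1150 in CAST/EiJ and 3703 in MRL/MpJ. Snora2b, in Kansl2, a subunit gene of a histone acetyltransferase complex, had 0.627 and ran between 57.1 in RIIIS/J and 208 in SJL/J. Snord35a, the neighbour of Snord33 in Rpl13a, had 0.605 and ran between 1253 in WSB/EiJ and 4161 in MRL/MpJ. Snord33 and Snord35a are known from studies in mouse as part of the response to lipotoxic stress.

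The 8 brightest members differed in how far they ranged. Snord57, in Nop56, which encodes a core protein of box C/D particles, had strain means between 8094 in RIIIS/J and 11704 in SJL/J and did not pass the F-test (adjusted p = 0.256, limma). Snora7a, in Rpl32, ran between 5046 in BALB/cByJ and 7841 in C57BL/10J and did not pass either (adjusted p = 0.928, limma). Snora52, in Rplp2, ran between 6788 in CE/J and 10921 in MRL/MpJ and passed (adjusted p = 0.00139, limma).

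Snord49b, in the non-coding gene 2410006H16Rik, ran between 4540 in RIIIS/J and 11243 in MRL/MpJ (adjusted p = 0.00198, limma). Snord104 ran between 1684 in RIIIS/J and 5855 in SM/J (adjusted p = 0.00993, limma). Snora3, in Rpl27a, ran between 1005 in CAST/EiJ and 4784 in PL/J (adjusted p = 0.00388, limma).

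Each strain was then set against the other 39, which gave 2000 pairs of a member and a strain. Of these, 82 were higher and 95 lower in the strain (limma, BH within each contrast), against 3.25% and 3.14% of all pairs of a probe set and a strain. With the shared level as covariate 95 were higher and 88 lower, against 3.01% and 2.89%, and 106 pairs passed in both fits. A total of 44 members passed in at least 1 strain without and 43 with the covariate. For these totals and for the pairs in both fits, the share over all probe sets was not counted, so they have no background here.

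MRL/MpJ had the most members on the high side, 25, against 5.32% of all probe sets in that strain. Its shared level was 9.90 and 10.28 on its 2 arrays, and 21 members had their highest strain mean there. The count rests on 1 array: with replicate 2 left out it was 1, with replicate 1 left out 27. With the shared level as covariate, 3 members were higher (1.87% of all probe sets) and 3 lower (1.35%) in MRL/MpJ.

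RIIIS/J had the most members on the low side, 22, against 5.77% of all probe sets in that strain. Its shared level was 9.05 and 8.74, and 18 members had their lowest strain mean there. Here too 1 array decides the count, which was 1 without replicate 2 and 20 without replicate 1. With the covariate, 7 members were higher (3.45%) and 6 lower (5.83%) in RIIIS/J.

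In SJL/J 12 members were higher (2.1% of all probe sets), a count of 16 without replicate 1 and of 0 without replicate 2 by limma, where 2 members had an unadjusted p under 0.05. In PL/J 9 members were higher (8.85%), 14 without replicate 1 and 1 without replicate 2. In WSB/EiJ 15 members were lower (3.68%), 2 without replicate 1 and 0 without replicate 2 by limma, with 18 and 7 at an unadjusted p under 0.05. In CAST/EiJ 12 were lower (9.99%), and 4 without either of its arrays. In PWD/PHJ 9 were lower (5.71%), 10 without replicate 2 and 0 without replicate 1 by limma, with 5 at an unadjusted p under 0.05. The counts in MRL/MpJ, RIIIS/J, SJL/J, PL/J and PWD/PHJ thus depend on 1 particular array. In WSB/EiJ and CAST/EiJ the count fell whichever array was left out. The members below are those whose 2 arrays both lay apart.

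A set of 8 pairs passed both with and without the covariate and had both arrays of the strain outside the range of all other arrays. The share of all pairs of a probe set and a strain that did so was not counted. Snord82 had the smallest adjusted p of the 8 pairs. It read 1608 and 1755 in MSM/Ms, against 2207 to 7392 with a median of 4647 on all other arrays. The difference was -1.48 ± 0.13 (SE, limma adjusted p = 6.22e-13, with 6.74% of all probe sets lower in MSM/Ms) and -1.32 with the covariate. The lowest of the other arrays were those of JF1/Ms at 2248 and 2207, and JF1/Ms was lower as well (-1.06 ± 0.13, limma adjusted p = 1.27e-08, with 4.47% of all probe sets lower).

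CAST/EiJ held 3 of the 8 pairs, all on the low side. Snora3 read 1027 and 985 in CAST/EiJ, against 1454 to 6423 with a median of 2818 elsewhere. Its difference was -1.51 ± 0.25 (SE, limma adjusted p = 5.15e-06) and -1.20 with the covariate. Snord96a read 49.8 and 70.0 in CAST/EiJ, against 78.5 to 179 with a median of 114 elsewhere (-0.95 ± 0.16, limma adjusted p = 5.2e-06). It is dim, and with the covariate it missed the threshold without CAST/EiJ replicate 2 (limma adjusted p = 0.0515).

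Snord118, the U8 RNA needed for maturation of large-subunit ribosomal RNA, was the third. It read 177 and 129 in CAST/EiJ, against 179 to 6717 with a median of 514 elsewhere, so its upper array lay close to the others. The difference was -1.88 ± 0.51 (SE, limma adjusted p = 0.00632) and -1.23 with the covariate. It was lost without replicate 2 (adjusted p = 0.0723, limma) and without replicate 3 (adjusted p = 0.165, limma). In the 2 CAST/EiJ arrays the mean level of 6 myeloid markers was 7.01 and 6.98, against a median of 6.24 over all arrays. It was similar in JF1/Ms (6.96 and 7.02), MSM/Ms (6.90 and 6.998) and SM/J (6.89 and 6.93), while PWD/PHJ had 6.11 and 6.15. Among these markers Lyz2 had its highest strain mean in CAST/EiJ (1563, where its mean over arrays was 69.5), and Itgam its lowest (58.6). MSM/Ms, JF1/Ms, CAST/EiJ and PWD/PHJ are compared below with all other strains. In that comparison Lyz2 was higher (+2.91 ± 0.50, SE, limma adjusted p = 5.14e-05). Csf1r, Cd68, Cd14, Fcgr1 and Itgam lay between -0.10 (Itgam) and +0.10 (Csf1r) and did not pass. The myeloid list level there thus rested on Lyz2 and not on the markers as a set. The part of those markers in these results was not tested.

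In the remaining strains 1 member each met the rule. Snora16a, from Snhg12, read 881 and 486 in RIIIS/J, against 943 to 4118 with a median of 1999 elsewhere. Its difference was -1.60 ± 0.28 (SE, limma adjusted p = 7.12e-05) and -0.83 with the covariate, and without RIIIS/J replicate 2 it was -1.17 (limma adjusted p = 0.17). Its neighbour in Snhg12, Snora44, had a difference of +0.58 there that did not pass (limma adjusted p = 0.519), and passed on the high side with the covariate (+1.67, limma adjusted p = 0.00439).

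Snora30, from an intron of the chromatin remodelling gene Srcap, read 405 and 496 in PL/J, against 182 to 402 with a median of 273 elsewhere. Its difference was +0.73 ± 0.12 (SE, limma adjusted p = 5.23e-06) and +0.62 with the covariate. Without PL/J replicate 2 and A/J replicate 2 it was +0.58 (limma adjusted p = 0.0204), so both PL/J arrays carried it.

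The smallest separations were those of Snord42b and Snord95. Snord42b, from Rpl23a, read 664 and 679 in PWD/PHJ, against 332 to 663 with a median of 490 elsewhere. Its difference was +0.48 ± 0.11 (SE, limma adjusted p = 0.00147), with adjusted p of 0.052 and 0.0547 when either array was left out, and 10.4% of all probe sets were higher in PWD/PHJ. Snord95, from Rack1, read 403 and 397 in CE/J, against 429 to 791 with a median of 547 elsewhere. Its difference was -0.49 ± 0.10 (SE, limma adjusted p = 0.000689), with an adjusted p of 0.0994 without CE/J replicate 2 and 0.0829 with array weights, and 2.65% of all probe sets were lower in CE/J. Both members were among those that followed the shared level weakly.

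**Figure D4:**
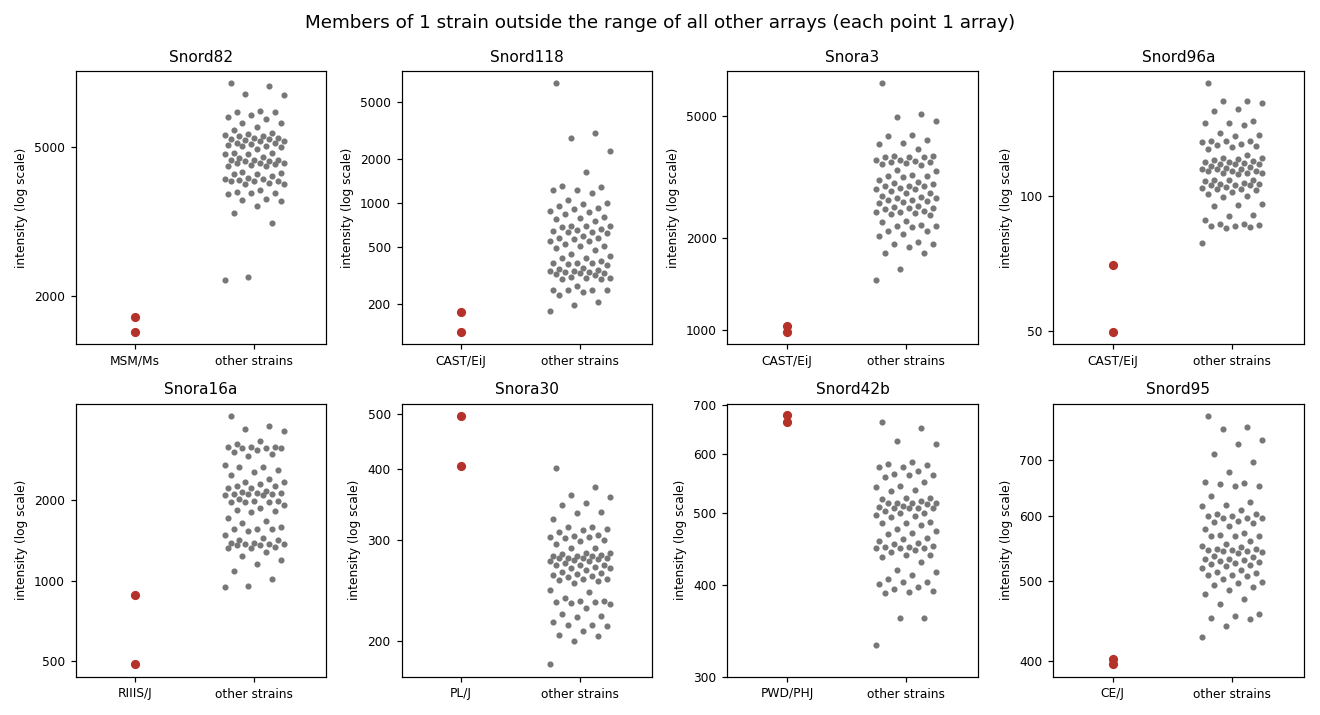
Intensity (log scale, vertical axis) of 8 members on each array, the arrays of the named strain in red at the left of each panel and all other arrays in grey at the right. In every panel both red points lie outside the grey range, by the widest gap for Snora3 in CAST/EiJ (1027 against 1454) and narrowly for Snord42b in PWD/PHJ (664 against 663).

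PL/J replicate 2, the array with markers of other cells, also carried the most extreme values of several members. Snora33 read 5375 there, against 361 on PL/J replicate 1, and Snord118 6717 against 487. Snora75 read 1941 against 150, and Snora74a 3802 against 375. These 4 members were at least 4-fold higher on replicate 2, and 10 members had their highest array there. On the mean of these unequal arrays all 4 passed as higher in PL/J, by +1.79 for Snord118, +1.78 for Snora33, +1.67 for Snora75 and +1.24 for Snora74a. Without PL/J replicate 2 and A/J replicate 2 the differences were -0.11, -0.17, -0.16 and -0.44, with limma adjusted p of 0.96, 0.872, 0.803 and 0.659, so these calls rest on that array. The lone PL/J array was assumed there to vary like those of other strains.

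Snora73a, a copy of U17, which serves in small-subunit ribosomal RNA processing, passed only with the covariate. It read 4652 and 4559 in CAST/EiJ, 4435 and 3861 in MSM/Ms, and 4228 and 4188 in JF1/Ms. The differences beyond the shared level were +1.17 (limma adjusted p = 9.14e-06), +1.08 (limma adjusted p = 4.07e-05) and +1.03 (limma adjusted p = 9.44e-05), where 7.19%, 5.3% and 6.77% of all probe sets were higher in these strains. The other strains past the threshold on the high side were DDY/JclSidSeyFrkJ (mean 4741), NZB/BINJ (4404) and KK.Cg-Ay/J (4051), and SM/J, which did not pass, had the highest mean (4781). Snora73b is nearly identical to it, and probes of the 2 copies may share signal.

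The strains MSM/Ms, JF1/Ms, CAST/EiJ and PWD/PHJ derive mainly from mouse subspecies other than Mus musculus domesticus. They were compared with the other 36 strains on strain means, so that each strain counted once. Relatedness among the strains, also among these 4, was not modelled. In the 4 strains 6 members were lower (3.77% of all probe sets) and 1 was higher (4.96%) by limma with Benjamini-Hochberg adjustment. Of the 50 differences 40 were below 0, with a median of -0.26, against 0.02 over all probe sets. The shared level of the 4 strains lay between 9.14 and 9.24, that of the others between 8.90 and 10.09 with a median of 9.42.

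Among the members that passed, Snord33 showed the largest difference. It read 872 and 910 in CAST/EiJ, 624 and 916 in PWD/PHJ, 798 and 986 in MSM/Ms, and 877 and 736 in JF1/Ms, against strain means of 861 to 3330 with a median of 1740 in the others. All 4 strains lay at the low end, and only 2 of the 36 others had a mean below the highest of the 4. The difference was -1.05 ± 0.20 (SE, limma adjusted p = 0.000246).

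Snord73b was the next of those that passed. It read 1193 and 1108 in CAST/EiJ, 1029 and 1419 in PWD/PHJ, 1052 and 1395 in MSM/Ms, and 1405 and 1252 in JF1/Ms, against strain means of 1256 to 3703 with a median of 2163 in the others. Of the 36 others, 1 (RIIIS/J) lay below the highest of the 4. The difference was -0.85 ± 0.20 (SE, limma adjusted p = 0.00273). Snord33 and Snord73b kept an adjusted p under 0.05 in each of 93 alternative settings.

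Snord15b, from Rps3, had strain means of 802 to 1509 in the 4 strains, against 873 to 3770 with a median of 1988 in the others (-0.77 ± 0.24, limma adjusted p = 0.0348). Snord61, from Rbmx, which encodes an RNA-binding protein, had strain means of 64.3 to 126 in the 4 strains, against 65.6 to 431 with a median of 143 (-0.76 ± 0.23, limma adjusted p = 0.0285). Snora2b had 79.2 to 116, against 57.1 to 208 with a median of 145 (-0.55 ± 0.17, limma adjusted p = 0.0335). In these 3 members the 4 strains overlapped the others more widely, and each lost its call in 4 to 6 of 93 settings.

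Snord82 passed (-0.65 ± 0.15, limma adjusted p = 0.00319), but the 4 strains were not alike. MSM/Ms and JF1/Ms were low, as given above. CAST/EiJ read 5218 and 4607 and PWD/PHJ 4821 and 4521, near the median of the other strains, 4703. Without MSM/Ms the difference was -0.37 (limma adjusted p = 0.184), and without JF1/Ms -0.50 (limma adjusted p = 0.0715).

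Snord95 was the 1 member that was higher, and is named here after its values were seen. It read 712 and 733 in CAST/EiJ, 602 and 791 in PWD/PHJ, 763 and 768 in MSM/Ms, and 741 and 550 in JF1/Ms, against strain means of 400 to 677 with a median of 543 in the others (+0.37 ± 0.08, SE, limma adjusted p = 0.000898). The count of 7 members was 4 with CAST/EiJ or MSM/Ms left out, 4 without MSM/Ms replicate 1 or without PWD/PHJ replicate 1, and 12 without PWD/PHJ replicate 2. Whether strain differences in the DNA under the probes move these values was not tested.

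**Figure D5:**
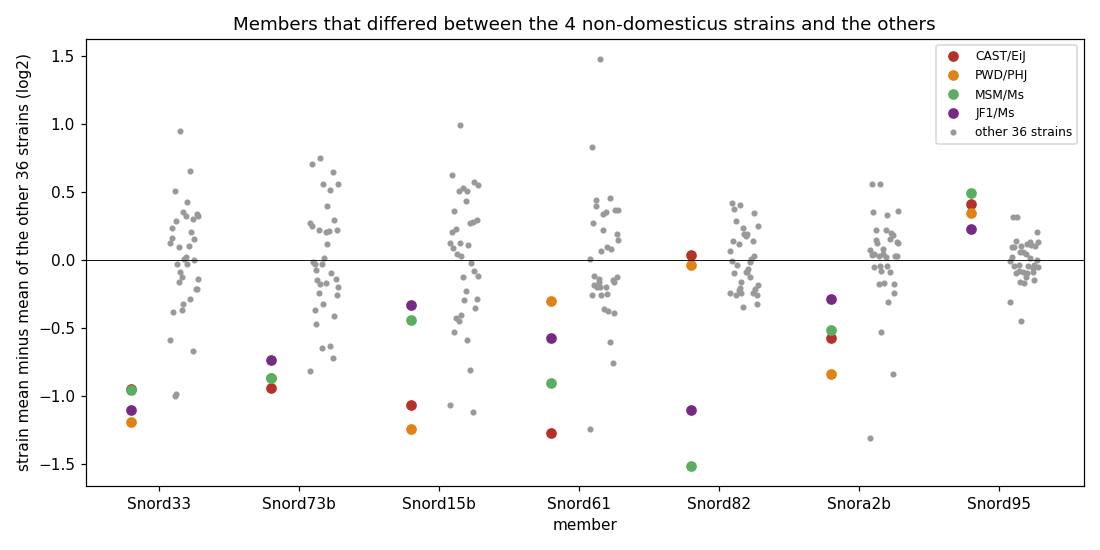
Strain means of the 7 members that passed, as log2 differences from the mean of the other 36 strains, with MSM/Ms, JF1/Ms, CAST/EiJ and PWD/PHJ in colour to the left of each column and the other 36 strains in grey to the right. All 4 coloured points lie low for Snord33 and Snord73b, while for Snord82 only MSM/Ms and JF1/Ms do.

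Members varied largely apart from their host genes. A host was measured for 28 members (25 genes, of which 20 passed the F-test), and over 40 strain means the median correlation between member and host was 0.174, or 0.171 after the shared level was subtracted from the members. In 2 members it was over 0.5: Snord47 with Gas5 (0.854) and Snora62 with Rpsa (0.566), a ribosomal protein gene. In 6 it was below 0, lowest for Snord73b with Rps3a1 (-0.424). Among the 6 were Snord87 with Mcmdc2 (-0.357) and Snord8 with Chd8 (-0.236). For these a wider gene around the member was used, since the narrowest, a non-coding gene, was not measured. Gas5 is a non-coding gene that carries several snoRNAs, and its 4 probe sets disagreed: the brightest followed Snord47 at 0.854, the others at 0.29, 0.424 and 0.0701. Whether a probe set of a host overlaps the snoRNA itself was not tested.

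Members from 1 host were alike in some pairs and not in others. Over 40 strain means, the 9 pairs with a shared host had a median correlation of 0.60, against 0.375 for 1216 pairs with different hosts. After the shared level was subtracted the medians were 0.406 and -0.0089. Snord49a and Snord49b (0.906), Snord15a and Snord15b (0.897) and Snora73a and Snora73b (0.863) are close copies that may share probes. Snord33 and Snord35a, which are not copies of each other, followed each other at 0.774. After subtraction this was 0.456, close to the 0.474 of Snord95 and Snord96a of Rack1, which stood at -0.102 before it. Snora16a and Snora44 of Snhg12 stood at -0.0105, and at -0.375 after subtraction. The highest value of a pair with different hosts was 0.949, for Snord47 and Snord49a, and it was 0.872 after subtraction.

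As list means, genes of the machinery that builds snoRNA particles followed the shared level weakly or not at all. Over 82 arrays its correlation was -0.00693 with 4 box C/D core proteins, -0.0654 with 4 box H/ACA core proteins, -0.267 with 13 assembly factors and -0.197 with 14 factors of decay and end trimming. Single genes of these lists lay between -0.519 (Tgs1) and 0.314 (Exosc5), with Nufip1 at -0.406. Many of these genes differed between strains by the F-test. Those that passed were 3 of 4 box C/D proteins (Fbl, Nop56 and Snu13) and 3 of 4 H/ACA proteins (Nop10, Nhp2 and Gar1). So did 10 of 13 assembly factors and 13 of 14 decay factors. Of all probe sets 47.6% passed, and of those with a mean above the median of all values 77.1%. Most of these genes lie above that median. Nop10 had the smallest adjusted p of these core proteins (8.45e-11, limma), with strain means between 886 in FVB/NJ and 2180 in PWD/PHJ. Exosc8, a subunit of the RNA exosome, was higher in the 4 strains of other subspecies (+0.60 ± 0.15, SE, limma adjusted p = 0.00466). Coil, the scaffold protein of Cajal bodies, was lower there (-0.28 ± 0.09, SE, limma adjusted p = 0.0442).

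Some small RNA genes without a Snord or Snora name moved with the shared level, among them the U3 snoRNA and related Cajal body RNAs. The mean of 7 such genes (Rn7sk, Rnu12, Rnu3a, Rnu7 and 3 Cajal body RNA genes) correlated with it at 0.702 over 82 arrays and at 0.82 over 81 arrays within strains. Singly, Scarna8 (0.646), the U3 gene Rnu3a (0.616) and Scarna17 (0.506) were over 0.5, and Scarna13 (0.47), Rn7sk (0.393), Rnu12 (0.37) and Rnu7 (-0.115) were not. The mean of 285 microRNA genes did not (-0.138), and 58 ribosomal protein genes did so weakly (0.388). Among 7 measured non-coding host genes, of 25 listed, Snhg17 (0.863) and the brightest probe set of Gas5 (0.761) followed the shared level. The other probe sets of Gas5 stood at 0.203, 0.489 and -0.0289, and the other 5 genes lay between -0.154 and 0.144. Of the cell markers, the naive CD4 T cell level had an r of -0.253 with the shared level, of -0.269 without the 2 arrays farthest from the median and of -0.49 within strains. The B cell level had an r of 0.235, and of 0.0921 without those 2 arrays. The part of these markers in the shared level was not tested.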

How the data were processed

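The values are linear intensities of 24922 probe sets on 82 arrays, normalized and deposited by the authors with RMA and Affymetrix Power Tools, per the submitters' processing notes (versions and genome build not given in the sources used here). Their log2 was used without renormalizing or filtering. Symbols came from the platform annotation. Members and lists were chosen with earlier results of these data known. limma 3.58.1 in R 4.3.3 was fitted with 1 coefficient per strain group to all 82 arrays (42 residual and 8.09 prior degrees of freedom), again with the array mean of the members as covariate, and on strain means for the subspecies comparison. Benjamini-Hochberg adjusted p-values (all probe sets, threshold 0.05) were used, which measure the spread between pools of mice. The number of arrays limits the precision. Named members were up to 12 called by the F-test with an intraclass correlation of at least 0.6, taken by SD of strain means, the 8 brightest, pairs called with the covariate whose arrays lay outside the range of all others, and up to 6 called in the subspecies comparison. Others were named after their values were seen. Hosts were found by containment in the RefSeq gene table (GRCm38.p6), without strand. The fits were tested on simulated data. Replicate numbers did not pair arrays: across 703 pairs of strains the replicate differences had a median correlation of -0.002237. No 2 arrays were identical.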

Additional observations from a re-analysis of the deposited data

Results flagged for a closer look

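In C57BL/6J, the 1 strain with enough arrays for this check, replicate 2 read 116 for Snora2b, far from the other 4 arrays at 148 to 156. The gap took up 0.814 of the range, above Dixon's critical value of 0.71. This was 1 of 51 measures checked (50 members and the shared level), and chance alone marks about 1 in 20.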

How the results depend on the processing

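The results were recomputed with each of 82 arrays left out in turn and under other settings (quantile normalization, median centring, a filter on dim probe sets, another prior, an offset of 32, array weights, all probe sets of a member, a replicate block, and without PL/J replicate 2 and A/J replicate 2). The count of members that differed between strains stayed between 34 and 40, that beyond the shared level between 35 and 45, the pairs of a member and a strain between 154 and 201, and those beyond the shared level between 166 and 271. With the replicate block these were 37, 36, 179 and 188. The subspecies count of 7 ran between 4 and 12 with 1 array left out, and was 4 without CAST/EiJ and 4 without MSM/Ms. The SD of strain means of the shared level stayed between 0.224 and 0.279. The median correlation of members with hosts was 0.0951 after quantile normalization and 0.253 after median centring. None of these values changed direction. The counts per strain, the added alternative chosen after seeing the data, moved most, as given with them. With 2 arrays in most strains, 1 array can end a call, and dim members such as Snord38a and Snord58b lie below the median of all values.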

Other observations

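A further 19 probe sets carried a Snord or Snora name among several symbols and were no members. The probe set of Snora24 and Snhg8 averaged an intensity of 540, with an SD of strain means of 0.66 and an F-test adjusted p of 5.79e-06 (limma), and followed the shared level at r = 0.75 over 82 arrays. That of Snord68 and Rpl13 averaged 641 and followed it at 0.853, and that of Mir1291 and Snora34 averaged 547 and followed it at 0.858. That of Snord14a and Rps13 averaged 398 and did not (-0.137), as Snord14e among the members did not. The probe set of Snord34 and Rpl13a, from the same host as Snord33 and Snord35a, averaged 1335 and followed it at 0.828. The 4 probe sets of Snord116l1 and Snord116l2, copies of the imprinted Snord116 cluster, were dim, with means of 32.7 to 39.95 and SDs of strain means of 0.78 to 0.87.

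Outside the named set, Snora41, from the elongation factor gene Eef1b2, read 776 and 577 in NZB/BINJ (+1.64 ± 0.43, SE, limma adjusted p = 0.0145) and 641 and 527 in PWD/PHJ (+1.44 ± 0.43, SE, limma adjusted p = 0.0147), against a median strain mean of 191. Snord14e, a U14 gene in Hspa8, read 1673 and 2220 in NZW/LacJ (+1.22 ± 0.32, SE, limma adjusted p = 0.0153), against a median strain mean of 829. Both were named after their values were seen.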
